A study of Mus musculus with 8 samples.

Results

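The genes described are 10 of the p53 pathway, out of 21879 in the deposited table: the tumour suppressor Trp53, its regulators Mdm2, Mdm4 and Ppm1d, the growth-arrest targets Cdkn1a, Ccng1, Zmat3, Btg2 and Phlda3, and the cofactor Zfp385a. They were selected by gene symbol, 9 of them for their role and Zfp385a because it was lower in the knockdown, and earlier results of these data were known when the list was drawn up. Differences between the groups are therefore a description, and Zfp385a is given without a p-value. For the 9 role-chosen members, p-values adjusted over all tested genes are printed to set each difference against the spread between libraries.

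Messenger RNA was sequenced from 4 libraries of cells carrying an shRNA against smgGDS (smgGDS knockdown) and 4 libraries of cells with a control shRNA (control). All cells were TCMK-1, a mouse kidney tubular epithelial line transformed with SV40, a virus whose large T antigen is known to bind p53, and both groups were given cisplatin, a DNA-crosslinking platinum compound, at 20 µM. The labels give no treatment time. Nothing in them says whether replicates are separate cultures or whether each group is 1 line, so p-values measure only the spread between libraries, which may be technical. No library without cisplatin was analysed here, so the response of the members to the drug was not measured. smgGDS, encoded by Rap1gds1, is a chaperone and exchange factor of small GTPases, and the study examined its part in cisplatin kidney injury.

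p53 is a transcription factor that DNA damage stabilises, in kidney tubule cells given cisplatin as elsewhere. It switches on genes that stop the cell cycle, such as Cdkn1a, and also genes that switch p53 itself off again, such as Mdm2 and Ppm1d. These loops limit the size and length of the response. Whether p53 acts in this way in the SV40-transformed cells used here was not tested.

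Total counts, rounded to 6 digits, were 12746000 to 14280900 in the knockdown libraries and 11561000 to 16059100 in the control libraries, and all 10 members passed the filter on low counts. Rap1gds1 checked the labels, at 2.36 to 2.80 CPM (counts scaled to a common library size with TMM factors) in the knockdown and 15.5 to 17.0 CPM in controls. Across 11576 tested genes, edgeR's quasi-likelihood test with Benjamini-Hochberg adjustment called 1059 lower and 1285 higher in the knockdown at an adjusted p below 0.05. Scaled by library totals alone these became 1951 and 766, and on the authors' FPKM 1481 and 592. Of 10 kidney epithelial markers, 5 had too few counts to be tested, among them Cdh1 with at most 5 counts in any library, and the proximal tubule regulator Hnf4a had 0 counts in every library. Summed over the 10 kidney epithelial markers, FPKM was 12.6 to 16.3 in the knockdown and 14.3 to 16.7 in controls. Of the 5 tested, 0 were called and 3 had a lower estimate. Pax8, a kidney lineage factor among them, was at 3.70 FPKM in the knockdown and 3.69 FPKM in controls, whereas the fibroblast collagen gene Col1a1 was at 54.3 and 48.2 FPKM. The summed FPKM of the 5 fibroblast markers was 62.0 to 70.0 in the knockdown and 53.6 to 57.6 in controls, with 4 of 4 tested markers higher. The sum of 5 proximal tubule markers, 44.1 to 46.7 FPKM in the knockdown and 54.6 to 60.9 FPKM in controls, was nearly all the water channel gene Aqp1. Aqp1 was called lower, at means of 45.0 and 57.1 FPKM. The sum of 4 leukocyte markers, 76.5 to 83.3 FPKM in the knockdown and 90.9 to 97.0 FPKM in controls, was nearly all Cd14 and Cd68, of which Cd14 was called lower, while the defining leukocyte gene Ptprc had at most 1 count in any library. The sum of 4 endothelial markers, 2.76 to 3.31 FPKM in the knockdown and 2.06 to 2.63 FPKM in controls, was nearly all Flt1. Flt1 was called higher. The part of these marker differences in the results below was not tested.

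The members covered a wide range of abundance, compared here by the authors' FPKM, which is scaled per transcript length. Cdkn1a was the most abundant, at 317 ± 12.5 FPKM in the knockdown and 392 ± 12.4 FPKM in controls (SD, n = 4 each). Trp53 stood next at 153 ± 5.44 and 164 ± 5.77 FPKM, and Ccng1 followed at 115 ± 9.26 and 158 ± 13.7 FPKM. In controls the ranges of Trp53 and Ccng1 overlapped, while in the knockdown they were separate. Phlda3, Mdm2, Zfp385a and Btg2 formed a middle tier, from 41.0 ± 1.89 FPKM for Phlda3 to 19.4 ± 1.67 FPKM for Btg2 in the knockdown. In controls that tier ran from 53.4 ± 4.39 FPKM for Phlda3 to 23.0 ± 2.83 FPKM for Btg2, and the ranges of Zfp385a and Mdm2 overlapped there. Ppm1d, Zmat3 and Mdm4 were the 3 low members, at 3.43 ± 0.434, 1.83 ± 0.318 and 1.49 ± 0.227 FPKM in the knockdown and 4.69 ± 0.878, 2.79 ± 0.293 and 1.53 ± 0.404 FPKM in controls. The ranges of Zmat3 and Mdm4 overlapped in the knockdown but not in controls.

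**Figure D1:**
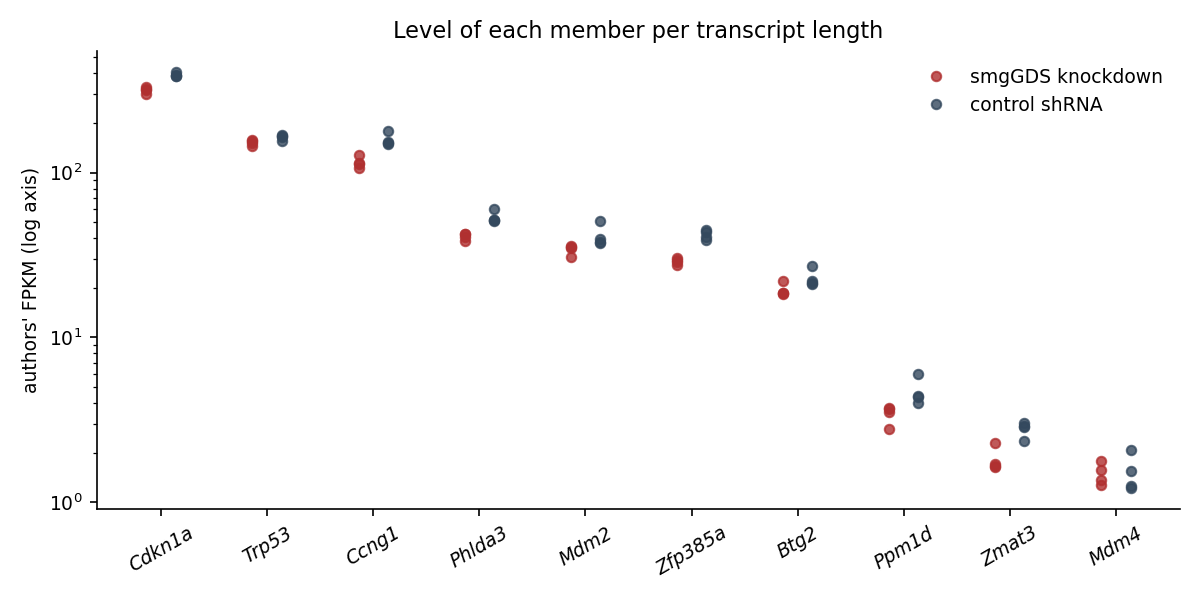
FPKM of each member on a log axis, with 1 point per library, knockdown in red and control in blue-grey. Members run from the most to the least abundant in the knockdown, from Cdkn1a at a mean of 317 FPKM to Mdm4 at 1.49 FPKM.

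The low members rest on few reads: over 4 libraries each, Mdm4 had 567 counts in the knockdown and 646 in controls, and Ppm1d had 525 and 789. Cdkn1a had 32028 and 43398. All members had whole counts in every library, and in GENCODE M21 none shared exonic bases with another gene of the table.

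Of the 10 members, 7 were past the threshold in the lower direction, where 9.15% of all tested genes were called lower and 20.2% were called in either direction. In edgeR 0 members were higher, against 11.1% of all tested genes, and 0 were higher at an unadjusted p under 0.05; DESeq2, limma voom and limma on FPKM also called 0 higher. Leaving out Zfp385a, 6 of the 9 role-chosen members fell, with falls between 0.20 for Btg2 and 0.56 for Zmat3 on the log2 scale. The median log2 fold change, given throughout as knockdown over control, was -0.25 over the 9 role-chosen members, -0.29 with Zfp385a included, and -0.00 over all tested genes. In bulk RNA, fewer cells expressing a gene and less RNA per cell cannot be told apart.

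**Figure D2:**
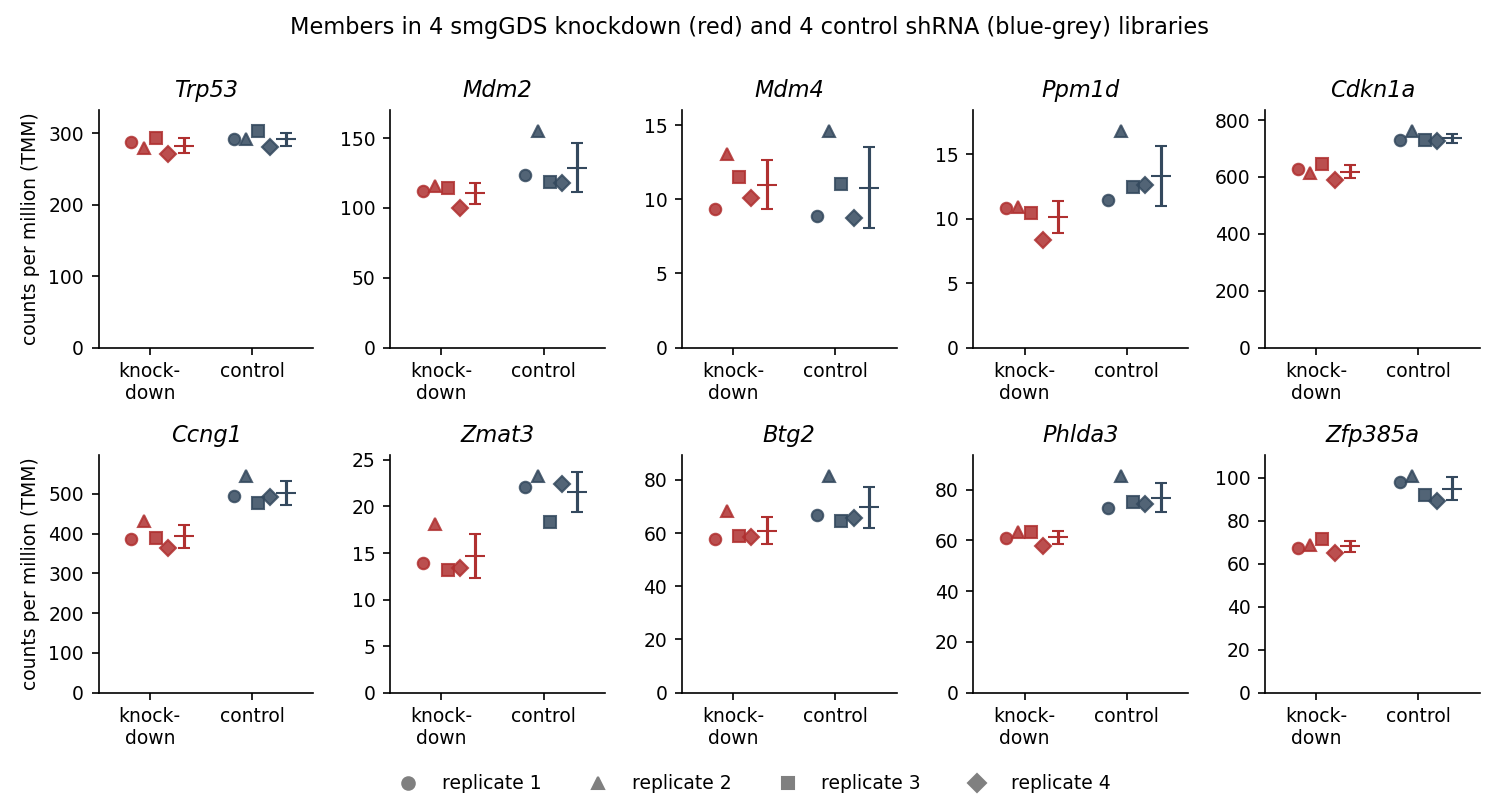
CPM of each member in the 4 knockdown libraries (red, left) and the 4 control libraries (blue-grey, right), with the mean and SD beside the points and 1 symbol per replicate number. For 7 of 10 members every knockdown library lies below every control library; Trp53, Mdm4 and Btg2 overlap.

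The gene for p53 itself, Trp53 (chr11:69580348-69591873, GRCm38.p6), was close to level between the groups. It had 288, 280.1, 294 and 271 CPM in knockdown replicates 1 to 4, and 292, 292, 303 and 281 CPM in control replicates 1 to 4. The groups overlapped, and the mean in the knockdown was 96.9% of control (95% interval 92.6% to 101%, edgeR adjusted p = 0.364). That interval leaves room for a fall of a few percent. Scaled by library totals alone, the log2 fold change of Trp53 was -0.10 and passed (edgeR adjusted p = 0.0195), where the median of all tested genes was -0.06.

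The regulators differed from one another. Mdm2 (chr10:117688875-117710758) encodes the ubiquitin ligase that marks p53 for degradation and is itself switched on by p53. It had 112, 116, 114 and 99.6 CPM in knockdown replicates 1 to 4 and 124, 155, 118 and 118 CPM in control replicates 1 to 4. All knockdown libraries lay below all control libraries, but control replicate 2 stood far above the other controls. The mean in the knockdown was 85.5% of control (95% interval 72.2% to 101%), a log2 fold change of -0.23 with an SE of 0.10 that missed the threshold (edgeR adjusted p = 0.189). Without control replicate 2 it was -0.12 (edgeR adjusted p = 0.0675), without both libraries numbered 2 it was -0.14 and passed (edgeR adjusted p = 0.0392), and on log2(FPKM + 0.5) it was -0.26 and passed (limma adjusted p = 0.0426).

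Mdm4 (chr1:132986105-133030587) encodes a relative of MDM2 that binds p53 and holds down its activity at promoters. Its values were 9.35, 13.04, 11.5 and 10.1 CPM in knockdown replicates 1 to 4 and 8.86, 14.6, 11.0 and 8.73 CPM in control replicates 1 to 4. The groups overlapped throughout and replicate 2 was the highest library in both. The log2 fold change was 0.01 (edgeR adjusted p = 0.975), with a 95% interval of -0.28 to 0.31 which spans 82.1% to 124% of the control level. Its sign was not stable: the estimate was -0.05 under scaling by library totals and 0.20 without control replicate 2.

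Ppm1d (chr11:85311254-85347071) encodes WIP1, a phosphatase that p53 induces and that removes activating phosphates from p53 and from damage kinases. It had 10.8, 10.9, 10.4 and 8.31 CPM in knockdown replicates 1 to 4 and 11.4, 16.8, 12.4 and 12.6 CPM in control replicates 1 to 4. The groups did not overlap, though the gap between the nearest libraries was small and the extremes were knockdown replicate 4 and control replicate 2. Ppm1d fell to 75.9% of control (95% interval 64.5% to 89.4%; log2 fold change -0.40, SE 0.12, edgeR adjusted p = 0.0121). That call was lost without control replicate 2 (-0.26, edgeR adjusted p = 0.133) and without knockdown replicate 4 (-0.32, edgeR adjusted p = 0.0662).

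Among the arrest targets, Cdkn1a (chr17:29090979-29100722) encodes p21, which blocks cyclin-dependent kinases and is the main arm of p53-driven arrest. It had 626, 614, 645 and 590.0 CPM in knockdown replicates 1 to 4 and 731, 760.2, 728 and 725 CPM in control replicates 1 to 4. Each group was tight and the highest knockdown library stayed well under the lowest control library. Cdkn1a fell to 84.0% of control (95% interval 80.7% to 87.5%, edgeR adjusted p = 1.61e-08), and its p-value ranked 56th among the 11576 tested genes.

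Ccng1 (chr11:40748552-40755309) encodes cyclin G1, a p53 target that brings the phosphatase PP2A to MDM2. It had 387, 432, 390 and 364 CPM in knockdown replicates 1 to 4 and 496, 544, 476 and 493 CPM in control replicates 1 to 4. The groups did not overlap, and replicate 2 was the highest library in each. Ccng1 fell to 78.2% of control (95% interval 72.4% to 84.5%; log2 fold change -0.35, SE 0.05, edgeR adjusted p = 0.000302).

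Zmat3 (chr3:32334792-32365665) encodes a zinc finger protein that binds RNA and is induced by p53. Its values were 13.9, 18.1, 13.2 and 13.3 CPM in knockdown replicates 1 to 4 and 22.1, 23.2, 18.4 and 22.4 CPM in control replicates 1 to 4. Knockdown replicate 2 came within a fraction of a CPM of control replicate 3, and the other libraries lay far apart. Zmat3 had the lowest estimate of the 10 members, at 68.0% of control (95% interval 59.4% to 78.0%; log2 fold change -0.56, SE 0.10, edgeR adjusted p = 3.97e-05).

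Btg2 (chr1:134074865-134079155) encodes an antiproliferative protein that recruits the CCR4-NOT deadenylase. It had 57.9, 68.3, 58.8 and 58.6 CPM in knockdown replicates 1 to 4 and 66.9, 81.3, 64.7 and 65.6 CPM in control replicates 1 to 4. Replicate 2 was the high library in both groups, and knockdown replicate 2 lay above 3 of the 4 controls. Btg2 fell to 87.2% of control (95% interval 79.0% to 96.2%, edgeR adjusted p = 0.0441), the narrowest call of the list. It was lost without control replicate 1 or 2 (edgeR adjusted p = 0.0548 and 0.194), without knockdown replicate 1, 3 or 4 (edgeR adjusted p = 0.124, 0.129 and 0.157) and on log2(FPKM + 0.5) (limma adjusted p = 0.0516). Without control replicate 2 the log2 fold change was -0.11, against -0.20 with all libraries.

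Phlda3 (chr1:135766085-135769134) encodes a small pleckstrin homology protein that competes with the kinase AKT for membrane lipids. It had 60.9, 63.2, 63.4 and 57.9 CPM in knockdown replicates 1 to 4 and 72.8, 85.2, 75.2 and 74.5 CPM in control replicates 1 to 4. The groups did not overlap. Phlda3 fell to 79.6% of control (95% interval 74.0% to 85.7%; log2 fold change -0.33, SE 0.05, edgeR adjusted p = 7.06e-06).

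Zfp385a (chr15:103313895-103340086) encodes HZF, which in mouse cells is both induced by p53 and a cofactor that steers p53 towards arrest genes. It had 67.3, 68.5, 71.5 and 65.1 CPM in knockdown replicates 1 to 4 and 97.95, 101, 92.1 and 89.1 CPM in control replicates 1 to 4. Every knockdown library was below every control library, and the gene was added because it was lower in the knockdown. Its mean in the knockdown was 71.6% of control, which is a description of the values it was chosen by.

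**Figure D3:**
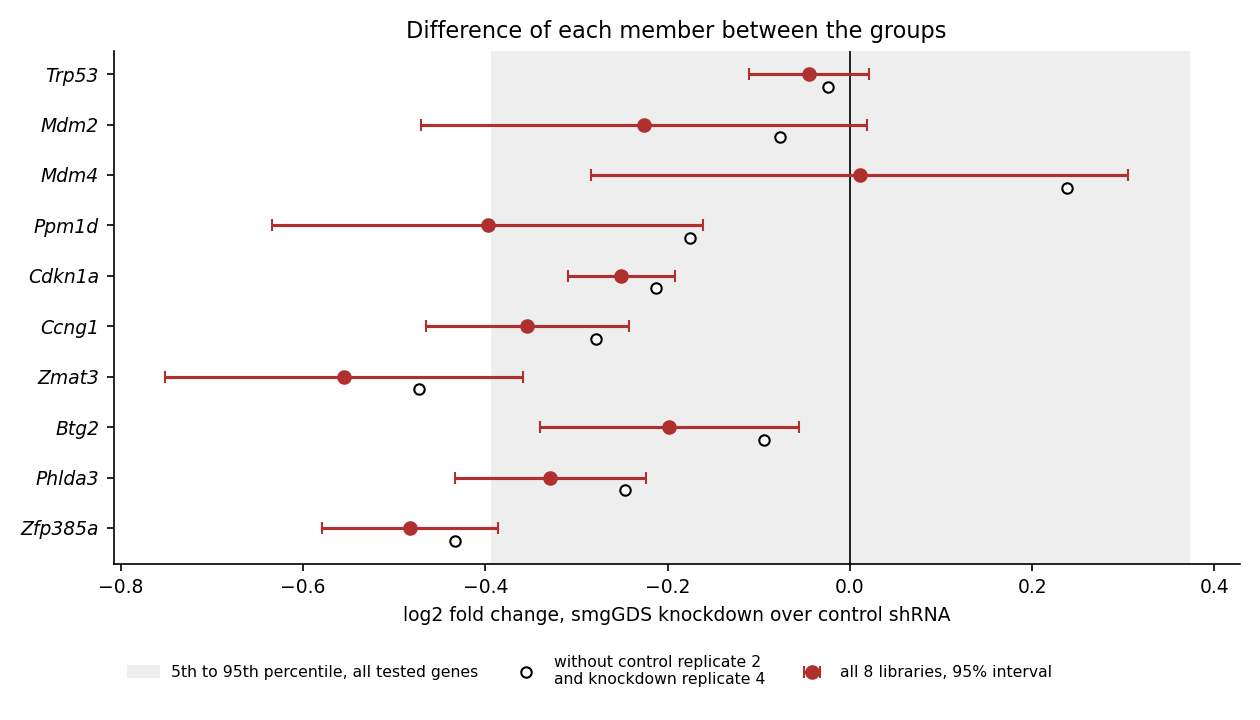
Log2 fold change of each member, knockdown over control, with 95% intervals from all 8 libraries (red) and the estimate without control replicate 2 and knockdown replicate 4 (open circles). The grey band holds the middle 90% of all tested genes, from -0.39 to 0.37. Zmat3, Zfp385a and Ppm1d have estimates below it with all 8 libraries. The interval of Zfp385a is no test of its fall, because the gene was added for that fall.

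Groups that did not overlap in CPM were found for 6 of the 9 role-chosen members, all lower in the knockdown, where 9.61% of all tested genes were separated in that direction, and for Zfp385a, which was added for its fall. The separated and the called genes were not the same: Mdm2 was separated without a call, and Btg2 was called while its groups overlapped.

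Several members were high or low in the same libraries of a group. In control replicate 2, 9 of the 10 members had their highest control value, whereas 26.8% of all tested genes were highest there. Measured as log2 CPM minus the mean of the group, Mdm4 was 0.46 above the control mean in that library, Ppm1d 0.35, Mdm2 0.28 and Btg2 0.23, while Trp53 was level at 0.00 and Cdkn1a at 0.05. In knockdown replicate 4 all 10 members were below their knockdown mean, where 51.4% of all tested genes were above theirs, and 7 members had their lowest value, against 28.4% of all tested genes. That library also stood apart on the principal component carrying the most variance, at -20.9 against -9.58 to -8.86 for the other knockdown libraries. Ppm1d was 0.27 below the mean in it and Mdm2 0.15 below. In knockdown replicate 2, 6 members had their highest knockdown value, against 25.6% of all tested genes, with Zmat3 0.32 over the mean and Mdm4 0.25 over it, while Trp53 and Cdkn1a were slightly below theirs.

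**Figure D4:**
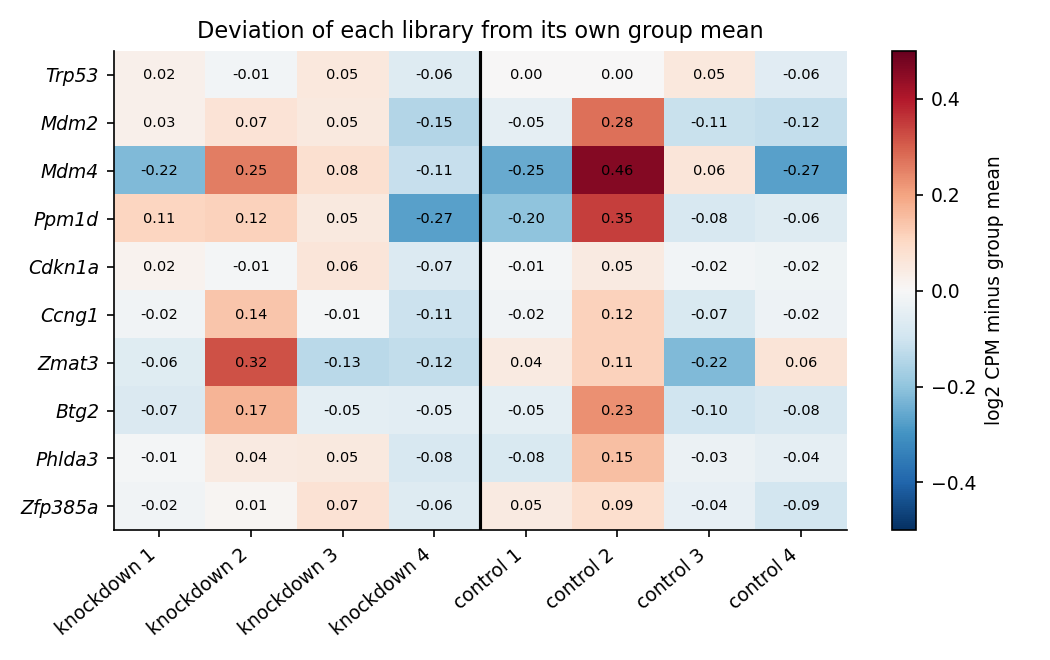
Log2 CPM of each member in each library minus the mean of its own group, knockdown libraries on the left of the line and control libraries on the right. Control replicate 2 is above its mean for Mdm4, Ppm1d, Mdm2 and Btg2 by 0.23 to 0.46, and knockdown replicate 4 is below its mean for all 10 members.

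Control replicate 2 and knockdown replicate 4 were then left out together, a choice made after their member values were seen. Smaller falls of the members follow from that choice. Over all tested genes, the number called lower went from 1059 to 682. The members called lower went down to 5: Cdkn1a, Ccng1, Zmat3, Phlda3 and Zfp385a, which was added for its fall. Their log2 fold changes were then -0.21 for Cdkn1a, -0.28 for Ccng1, -0.47 for Zmat3, -0.25 for Phlda3 and -0.43 for Zfp385a. The 3 regulators Mdm2, Mdm4 and Ppm1d stood at -0.08, 0.24 and -0.18 without a call, and Btg2 at -0.09 (edgeR adjusted p = 0.302). Mdm2, Ppm1d and Btg2 moved by over 1.5 times with this choice, while Cdkn1a, Ccng1, Zmat3, Phlda3 and Zfp385a did not. Of the role-chosen members, Cdkn1a, Ccng1, Zmat3 and Phlda3 were also past the threshold in each of the 19 alternative fits.

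The promoter windows of the members are shown for their p53 half-site letters, because p53 binds DNA as a pair of such half-sites and several members fell together. RefSeq windows of 300 bases, from 250 before to 50 after an annotated start (GRCm38.p6), were found for 9 members; Zmat3 is named only. The p53 half-site consensus, which reads the same on both strands, was searched with no mismatch allowed. It was in 5 of 12 member windows, 1 each of Trp53, Mdm2, Ppm1d, Cdkn1a and Ccng1, and in 8.36% of 32851 windows of all genes. A full site, taken as 2 half-sites with a spacer of at most 13 bases, was matched in 1 member window, the upstream of both Cdkn1a windows, and in 0.0731% of all windows. That window (chr17:29090729-29091028, plus strand) is printed whole, with both exact matches in capitals. A half-site with a mismatch, tgacatgttc, adjoins GAACATGTCT and stays in lower case, so the marked pair is only the pair that the exact search found.
Cdkn1a: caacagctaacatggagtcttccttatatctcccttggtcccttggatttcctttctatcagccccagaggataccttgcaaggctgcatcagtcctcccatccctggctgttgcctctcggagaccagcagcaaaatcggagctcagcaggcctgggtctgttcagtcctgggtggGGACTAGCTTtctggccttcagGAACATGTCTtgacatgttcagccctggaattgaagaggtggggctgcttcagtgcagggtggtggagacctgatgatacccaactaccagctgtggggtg

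For the other 4 members, 60 bases around the single exact match are printed, again with the match in capitals and on the strand of the gene. A half-site with a mismatch, agacctgccc, adjoins the Ccng1 match and stays in lower case. The stretches lie at chr10:117710910-117710969 (minus strand) for Mdm2, chr11:85311097-85311156 (plus strand) for Ppm1d, chr11:40755437-40755496 (minus strand) for Ccng1 and chr11:69580259-69580318 (plus strand) for Trp53.
Mdm2: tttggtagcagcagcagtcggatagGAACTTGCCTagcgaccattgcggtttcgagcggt
Ppm1d: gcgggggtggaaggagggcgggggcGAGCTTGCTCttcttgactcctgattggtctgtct
Ccng1: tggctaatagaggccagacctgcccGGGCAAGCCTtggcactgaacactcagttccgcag
Trp53: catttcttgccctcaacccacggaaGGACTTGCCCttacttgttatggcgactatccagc

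The windows of Mdm4, Btg2, Phlda3 and Zfp385a held no half-site match, which says only that these letters are not in those 300 bases. The Phlda3 window ends in gaacatgt, which fits the start of the consensus and is cut by the window edge. Whether a half-site lies there cannot be told from the window. Among the genes with a match, Cdkn1a, Ccng1 and Ppm1d fell, while Trp53 and Mdm2 did not pass. Of those without one, Btg2 and Phlda3 fell and Mdm4 did not pass. Binding of p53 was not measured.

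Other targets of p53 were lower more often than higher. Of 39 tested from a list of 40, 14 fell and 3 rose, where 9.15% of all tested genes were lower and 11.1% higher, with a median log2 fold change of -0.17 against -0.00 over all tested genes; the list was chosen with earlier results known. Fbxw7, a ubiquitin ligase subunit, fell by 0.57 on the log2 scale (SE 0.08), Psrc1, a microtubule-associated protein, fell by 0.46 (SE 0.08), and the death receptor Tnfrsf10b, whose counts are not all whole, fell by 0.39 (SE 0.05). Gadd45a, a growth-arrest gene that other stress pathways also induce, rose by 0.22 (SE 0.03). For these 4 genes edgeR adjusted p lay between 6.52e-08 and 4.55e-05. Without control replicate 2, 10 of the list fell.

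Among genes upstream of p53 and its cofactors, more rose than fell with TMM scaling, but not by library totals or on FPKM. Of 39 tested from 44 names, 11 rose and 4 fell, where 11.1% of all tested genes were higher and 9.15% lower, and the median was 0.05. Cdkn2a, whose ARF product binds MDM2, rose by 0.28 (SE 0.04), with a mean of 281 CPM in the knockdown against 233 CPM in controls. Rpl5, a ribosomal protein that can also bind MDM2 and has counts that are not all whole, rose by 0.22 (SE 0.03), and Daxx, a histone chaperone partner of MDM2, rose by 0.34 (SE 0.04). Rbm38, an RNA-binding protein that p53 induces and that acts on Cdkn1a mRNA, fell by 0.32 (SE 0.05). The edgeR adjusted p of these 4 genes lay between 2.70e-09 and 8.99e-06. The counts became 8 higher and 9 lower by library totals and 5 higher and 5 lower on FPKM. The p53 relatives Trp63 and Trp73 had 0 counts in every library.

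A list of cell-cycle genes held cyclins, CDKs and CDK inhibitors other than p21, and also CDC25 phosphatases, Wee1, Pcna, E2f1 and the retinoblastoma family. Of 28 tested, 11 fell and 2 rose, where 9.15% of all tested genes were lower and 11.1% higher, and the median was -0.14. The 11 included 3 regulators of CDK phosphorylation, Cdc25a, Cdc25c and Wee1. Cyclin B2 (Ccnb2) fell by 0.26 on the log2 scale (SE 0.05), the phosphatase gene Cdc25a fell by 0.33 (SE 0.07) and Cdkn2b, encoding the CDK4 and CDK6 inhibitor p15, fell by 0.31 (SE 0.08). Cdk4 rose by 0.13 (SE 0.03). The edgeR adjusted p of these 4 genes lay between 0.000202 and 0.00538. The number that fell was 6 without control replicate 2, 7 without knockdown replicate 3 and 6 without knockdown replicate 4, and without either control replicate 2 or knockdown replicate 4 only 1 rose.

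**Figure D5:**
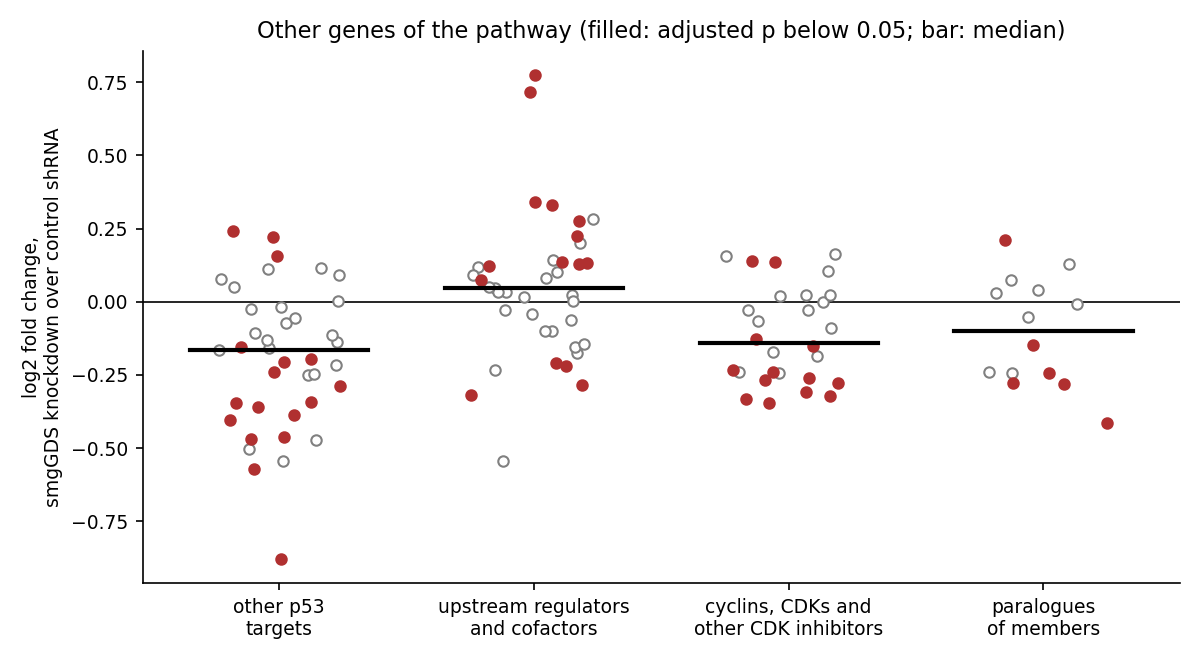
Log2 fold change, knockdown over control, of every tested gene in 4 lists, with filled points for an adjusted p below 0.05 and bars for the medians. The medians are -0.17 for other p53 targets, 0.05 for upstream regulators and cofactors, -0.14 for cell-cycle genes (labelled cyclins, CDKs and other CDK inhibitors), and -0.10 for paralogues of the members.

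Paralogues of the members, which are not textbook p53 targets as a group, were examined in the same way. Of 14 tested, 5 fell and 1 rose, where 9.15% of all tested genes were lower and 11.1% higher, and the median was -0.10. In the BTG/TOB family of Btg2, Tob2 fell by 0.28 (SE 0.04), Btg1 fell by 0.24 (SE 0.05) and Tob1 fell by 0.15 (SE 0.04) on the log2 scale, while Btg3 rose by 0.21 (SE 0.04). Phlda1, the paralogue of Phlda3, fell by 0.28 (SE 0.04). Ccng2, the paralogue of Ccng1, fell by 0.42 (SE 0.11), and its call was lost without both control replicate 2 and knockdown replicate 4 (edgeR adjusted p = 0.0913). The edgeR adjusted p of these 6 genes lay between 1.99e-06 and 0.00934.

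The other paralogues did not pass with all libraries and TMM scaling. The Ppm1d relatives Ppm1a, Ppm1b, Ppm1f and Ppm1g had log2 fold changes of -0.01, 0.13, 0.03 and -0.05, and cyclin I (Ccni) had 0.08. The p21 relatives Cdkn1b and Cdkn1c, which encode the CDK inhibitors p27 and p57, had -0.24 for each gene. Cdkn1b passed in 5 of 20 alternatives, among them library totals (-0.30, edgeR adjusted p = 0.0160), log2(FPKM + 0.5) (-0.28, limma adjusted p = 0.0217) and the fit without control replicate 1 (-0.30, edgeR adjusted p = 0.0338), and Ppm1g passed by library totals (-0.11, edgeR adjusted p = 0.0173). Zfp346, a zinc finger gene akin to Zfp385a, had 0.04. The edgeR adjusted p of these 8 genes lay between 0.0567 and 0.934.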

How the data were processed

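The authors deposited 1 table with FPKM and gene-level expected counts (not always whole numbers) of 8 libraries of oligo(dT)-selected RNA, per the file headers and the labels' protocols. Per the submitters' processing notes, the tools were HISAT2 2.4, StringTie 1.3.1, RSEM, Bowtie2 2.2.8, fastp 0.18.0, edgeR and DESeq2, without role or order, on build GRCm38.p6. Strand and annotation are not given in the sources.

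The deposited expected counts were rounded and fitted in edgeR 4.0.16 (R 4.3.3) on group alone, with TMM factors, the default low-count filter, the robust quasi-likelihood test, two-sided, and Benjamini-Hochberg adjustment over 11576 genes. Intervals are 95% and rest on the spread between libraries. CPM used TMM-scaled library sizes. By library totals without TMM factors, 3 counts correspond to 0.187 to 0.259 CPM, which covers counting error only. Libraries of a group differed by more than sampling noise (chi-square per degree of freedom 1.94 to 3.94). The procedure was tested on simulated data. There it called 20 of 49 genes with an absolute log2 fold change of 0.3 and 38 of 49 with 0.6. It also called 6 of 11279 genes with a log2 fold change of 0. Differences of the size of many members can therefore be missed.

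The members and lists were chosen with earlier results of these data known. Named genes are the members, Rap1gds1, up to 4 called genes with the smallest adjusted p per list, and all tested paralogues. Genes named as cell markers and Trp63 and Trp73 were added after their values were seen. Of 44 upstream names 41 matched the table. Exon overlaps used GENCODE M21 and promoters used RefSeq, both of the build of the table. The alternatives tried were DESeq2 1.42.0, other size factors, limma 3.58.1 (voom, and log2 of FPKM with pseudocounts of 0.5 and 0.1), other filters, a threshold of 0.01, a replicate term and each library left out. Leaving out both libraries numbered 2, or control replicate 2 with knockdown replicate 4, was added after seeing the data.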

Additional observations from a re-analysis of the deposited data

Results flagged for a closer look

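In 22 groups of 4 libraries (10 members and Rap1gds1, each in 2 groups), 4 held a library far from the other 3 by Dixon's criterion, and chance gives about 1 in 20 such groups. All 4 concern a library numbered 2. Btg2 stood at 68.3 CPM in knockdown replicate 2, against 57.9 to 58.8 CPM in the other knockdown libraries, and at 81.3 CPM in control replicate 2, against 64.7 to 66.9 CPM in the other controls. Zmat3 was at 18.1 CPM in knockdown replicate 2, against 13.2 to 13.9 CPM in the rest of that group. Mdm2 was at 155 CPM in control replicate 2, against 118 to 124 CPM in the other controls. Whether these libraries share a culture or a day is not given in the labels and was not tested.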

How the results depend on the processing

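Over 37 named genes and 20 alternatives, 739 values were computed. Of these, 712 kept their side of the threshold, 15 lost a call, 12 gained one and 0 reversed a called direction. The 712 include uncalled values whose sign changed, for Mdm4 (estimates from -0.08 to 0.24), Ppm1a, Ppm1f and Zfp346. Cdkn1a, Ccng1, Zmat3 and Phlda3 kept their calls in every fit run. The number of members called lower ranged from 5 to 8. Over all genes, a threshold of 0.01 left 1405 calls, 825 higher and 580 lower. Scaling by library totals gave 766 higher and 1951 lower. FPKM gave 592 higher with a pseudocount of 0.5 and 588 with 0.1. Without control replicate 2 and knockdown replicate 4 together, 682 were lower, 7 upstream genes were higher, and of the cell-cycle list 1 was higher and 5 lower. In that list the threshold of 0.01 left 1 higher and 5 lower, library totals and both FPKM fits left 1 higher, and dropping both libraries numbered 2 left 6 lower. Leaving out single libraries gave 1 to 2 higher and 6 to 10 lower there. Upstream genes were 5 higher on FPKM with either pseudocount and 9 lower by library totals. The cause of these shifts was not tested.

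Correlations of same-numbered deviations over all tested genes were -0.04 to 0.08, under the minimum of 0.1 set for treating libraries as paired. Of the knockdown libraries, 3 of 4 correlated best with the control library of their own number. Whether libraries with the same replicate number share a culture or a day was not tested. With the number as a replicate block, 2660 genes were called, and 8 members were lower with Mdm2 added (edgeR adjusted p = 0.000192). In that fit 2 paralogues were higher, with Ccni added (edgeR adjusted p = 0.0338). Mdm4 and Ppm1d had 102 to 278 counts per library, which limits their precision; the part of depth in their spread was not tested.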
